A study of Mus musculus with 9 samples.

Results

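Vat1l, Crip2, Calca, Sparc, Marcks, Gem, Clca3a1 and Clca3a2 are 8 genes whose RNA was higher in mouse FDCPmix cells after knockdown (KD) of Pu.1 than in control cells. They were chosen for that difference on these same arrays, and some of them also for a lower level after Gata2 KD. They are 8 of the 16535 genes that the arrays could name, and 12 of 41174 probes read them. The choice rests on the changes given here, so the members' values are a description and carry no test. Clca3a1 and Clca3a2 were named Clca1 and Clca2 in older annotation.

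FDCPmix is a non-leukemogenic multipotent hematopoietic cell line from the mouse that self-renews in IL-3. All cells were kept in self-renewal culture and received lentivirus, which in the EV group was empty, in the Gata2 KD group encoded shRNA (a short hairpin RNA that lowers its target's messenger RNA) against Gata2, and in the Pu.1 KD group encoded shRNA against Pu.1, the common name of Spi1. The hairpins were carried in Lentilox 3.7, and viable GFP+ cells were sorted at day 5 in every group. Total RNA (150 ng) was hybridized to single-color arrays, 3 per group and 9 in all. The design is therefore 1 cell line and 1 time point, and how many hairpin sequences were used per target is not stated in the labels, so effects particular to a hairpin cannot be told apart from those of its target. Transductions are given as triplicate, and the sources used here do not say whether the cultures were separate, so p-values measure only the spread between these samples, which may be technical.

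Between 80.4% and 89.6% of spots on an array were well above background, none was saturated, and the 75th percentile of processed intensity was 439 to 587. EV replicate 3 resembled the other arrays least (mean r 0.960, against 0.971 or more for the rest). The arrays lay on 3 slides with 1 array of each group on each slide. Of the targeted genes, Spi1 changed by -1.73 (log2) in Pu.1 KD (SE 0.16, limma adjusted p 0.00178) and Gata2 by -1.61 in Gata2 KD (SE 0.23, limma adjusted p 0.00414). Spi1 rose in Gata2 KD, by 1.39 (SE 0.16, limma adjusted p 0.0012), so the groups with low and high Spi1 lie on either side of EV. All 11 hematopoietic markers listed for the identity of the line were well above background on all 9 arrays. So were all 10 markers listed for fibroblasts and stroma and all 9 for neuronal and neuroendocrine cells. Signal well above background therefore does not tell cell types apart here. Levels below are log2 processed intensities from which the array's own 75th percentile was subtracted, and group values are mean ± SD (n = 3). RNA came from bulk sorted cells, in which a change in the share of cells that express a gene and a change in RNA per cell cannot be told apart.

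PU.1 is an ETS-family transcription factor that binds purine-rich sites around GGAA and is required for granulocyte, monocyte and lymphoid development. GATA2 binds GATA sites and maintains hematopoietic stem and progenitor cells and mast cells. The 8 genes belong to no single pathway. Calca encodes a secreted peptide hormone precursor, Sparc a secreted matrix protein, the Clca pair proteins linked to calcium-activated chloride conductance, Marcks and Gem proteins at the inner face of the plasma membrane, Crip2 a LIM-domain protein and Vat1l a relative of the vesicle protein VAT1.

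All 8 genes had every Pu.1 KD array above every EV array, and so did all 12 probes. Among all probes with a value on every array, 7.93% had that order, but here the order was part of the choice and nothing is read from the count. The log2 difference between Pu.1 KD and EV ran from 1.52 in Calca to 3.90 in Vat1l, with a median of 2.59 over the 8 genes, where the median of all 15808 genes tested was -0.04. Of the 8, 5 were over 4-fold higher, as were 0.0696% of all genes. In Gata2 KD, 7 of 8 genes and 8 of 12 probes had every array below every EV array (10.9% of all probes), and Marcks was the exception among the genes. The log2 difference between Gata2 KD and EV ran from -2.12 in Calca to 0.36 in Marcks, with a median of -1.70, where the median of all genes was -0.09. Both comparisons use the same 3 EV arrays, so their values are given side by side and no relation between them is drawn.

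**Figure D1:**
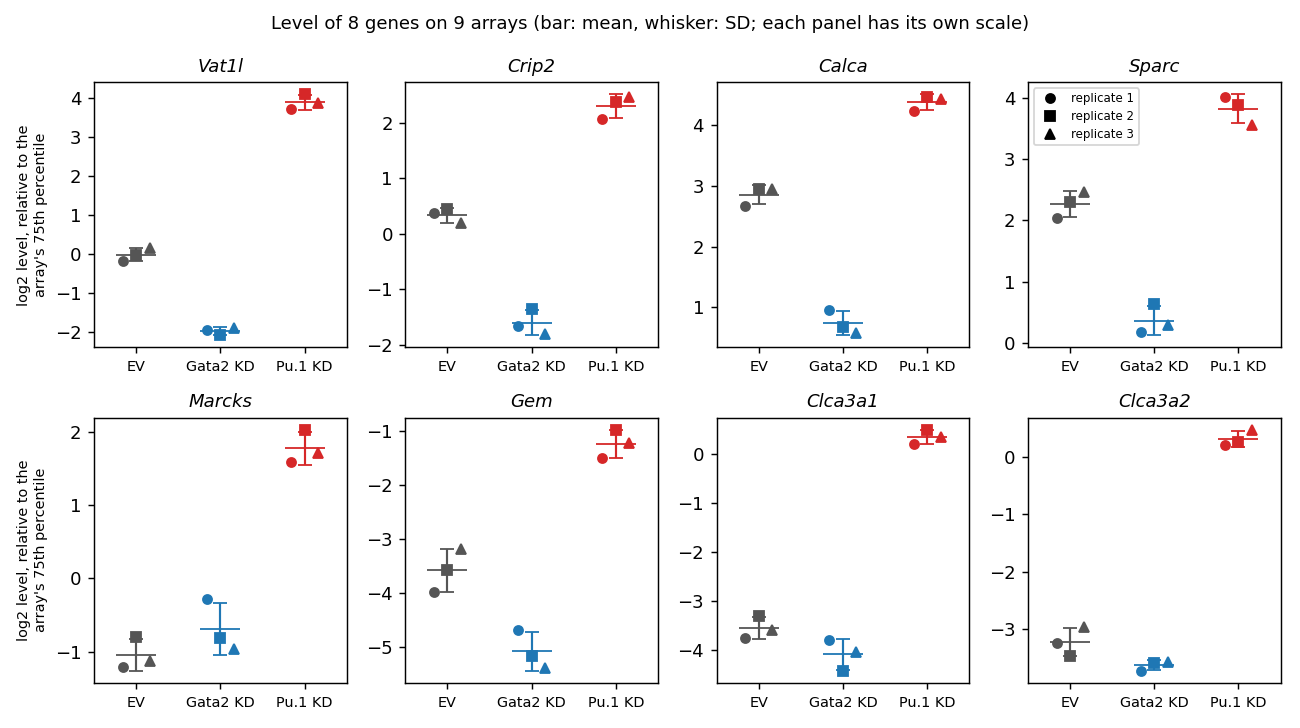
Level of each gene (log2, relative to the array's 75th percentile) on the 3 arrays of each group, for the probe of highest mean level, with the mean and SD, on a separate scale in each panel. In every panel the 3 Pu.1 KD arrays lie above the 3 EV arrays, and the Gata2 KD arrays lie below EV in all panels but that of Marcks.

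The regions before the start sites of 5 of the 8 genes (Vat1l, Crip2, Calca, Sparc and Clca3a1), from RefSeq's promoter sequences, are described because GATA2 and PU.1 each bind short words. Each region is 300 bases of build GRCm38.p6, from 250 before the start site to 50 after it, read 5′ to 3′ on the gene's strand. Crip2 has 2 start sites and so 2 regions, which makes 6 in all. Both strands were searched for the PU.1-type word GGAAGTG, for the longer word GAGGAAGT (which shares the letters GGAAGT with the first), for 4 GATA words (AGATAA or AGATAG or TGATAA or TGATAG), for the cAMP response element TGACGTCA, for the AP-1 words TGACTCA and TGAGTCA, and for TATAAA. Capitals in the sequences mark the PU.1-type and GATA words, as they stand on the gene's strand. The 4 regions printed are that of Vat1l, which had the largest difference in Pu.1 KD and held none of these words, and those of Crip2, Calca and Clca3a1, which held at least 1.
Vat1l, chr8:114205390-114205689, + strand: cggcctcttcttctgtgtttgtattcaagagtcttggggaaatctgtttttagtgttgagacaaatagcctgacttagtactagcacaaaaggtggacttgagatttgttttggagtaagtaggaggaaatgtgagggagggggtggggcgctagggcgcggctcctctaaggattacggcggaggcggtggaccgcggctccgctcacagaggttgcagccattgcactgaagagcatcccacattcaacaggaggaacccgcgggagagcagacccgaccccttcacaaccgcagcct
Crip2, chr12:113139986-113140285, + strand: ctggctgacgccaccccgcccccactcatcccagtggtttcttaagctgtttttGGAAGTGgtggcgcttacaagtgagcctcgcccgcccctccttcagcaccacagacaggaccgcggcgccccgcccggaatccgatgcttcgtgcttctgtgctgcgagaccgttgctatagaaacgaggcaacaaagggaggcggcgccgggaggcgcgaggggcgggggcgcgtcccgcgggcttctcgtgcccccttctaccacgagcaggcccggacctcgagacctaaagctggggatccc
Calca, chr7:114636308-114636607, - strand: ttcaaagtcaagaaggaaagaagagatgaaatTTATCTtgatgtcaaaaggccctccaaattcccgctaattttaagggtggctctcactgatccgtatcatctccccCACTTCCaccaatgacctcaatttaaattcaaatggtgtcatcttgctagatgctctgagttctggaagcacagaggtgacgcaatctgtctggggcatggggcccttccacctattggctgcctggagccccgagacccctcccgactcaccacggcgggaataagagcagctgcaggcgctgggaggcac
Clca3a1, chr3:144760928-144761227, - strand: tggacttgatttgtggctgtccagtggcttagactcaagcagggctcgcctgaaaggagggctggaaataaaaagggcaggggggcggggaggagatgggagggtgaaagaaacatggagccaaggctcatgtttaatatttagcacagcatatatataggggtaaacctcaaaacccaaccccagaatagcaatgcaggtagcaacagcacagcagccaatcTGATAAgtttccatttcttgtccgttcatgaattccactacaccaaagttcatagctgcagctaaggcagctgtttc

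The word GGAAGTG occurred in Crip2, with its first base at -196 from the start site, and in Calca, where it lay on the opposite strand at -142. It is present in 11% of all 32851 promoters of this length. A GATA word occurred in Calca at -218 on the opposite strand, and in Clca3a1 at -27, and 29.8% of all promoters hold one. None of the 6 regions held GAGGAAGT (3.2% of all promoters), TGACGTCA (1.79%), an AP-1 word (5.2%) or TATAAA (13.6%). The regions of Sparc (chr11:55420031-55420330, - strand) and of the other Crip2 start site (chr12:113140355-113140654, + strand) held no word searched. These matches are letters and not shown sites of binding, and a missing match says only that the letters are not in the window. The Crip2 regions were 66.3% and 73.7% G and C with 29 and 36 CpG pairs, and the Clca3a1 region 48.0% with 3, where the medians of all promoters were 52.7% and 7.

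Among the secreted products, Calca encodes calcitonin and, by alternative splicing, the vasodilator peptide CGRP. Its probe of highest mean level read 2.68, 2.94 and 2.95 on the EV arrays, 0.96, 0.67 and 0.58 on the Gata2 KD arrays, and 4.23, 4.47 and 4.43 on the Pu.1 KD arrays. The 3 groups did not overlap, and the gap from the lowest Pu.1 KD to the highest EV array was 1.28. In processed intensity before scaling, EV arrays read 3752 to 3791, Gata2 KD arrays 745 to 855 and Pu.1 KD arrays 8717 to 11022, so the gene was bright in all 3 groups. The log2 difference was 1.52 (SE 0.16, 2.87-fold) in Pu.1 KD and -2.12 (SE 0.16, 4.34-fold lower) in Gata2 KD. Of the 8 genes, Calca had the smallest difference in Pu.1 KD and the largest in Gata2 KD.

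The other Calca probe is assigned to a different RefSeq transcript and was dim, with processed intensities of 25.4 to 101. It read -2.69, -3.30 and -2.65 in EV, -4.11, -3.46 and -3.29 in Gata2 KD, and -2.38, -2.64 and -2.26 in Pu.1 KD. Its difference was 0.45 (SE 0.26) in Pu.1 KD, where the groups were apart by 0.01 only, and -0.74 (SE 0.26) in Gata2 KD, where they overlapped. The 2 Calca probes thus differed in the size of their change, and whether the transcripts or the dimness of the second probe go with that was not tested.

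Sparc encodes a collagen-binding protein of the extracellular matrix, also called osteonectin, which is stored in platelets. The brighter of its 2 probes read 2.04, 2.29 and 2.46 in EV, 0.18, 0.63 and 0.29 in Gata2 KD, and 4.01, 3.89 and 3.56 in Pu.1 KD. No array of a group reached the range of another. The differences were 1.55 (SE 0.19, 2.94-fold) in Pu.1 KD and -1.90 (SE 0.19, 3.73-fold lower) in Gata2 KD. The other Sparc probe read 1.41, 1.80 and 1.56 in EV, -0.54, -0.56 and -1.08 in Gata2 KD, and 3.11, 3.20 and 2.82 in Pu.1 KD. It gave 1.46 (SE 0.20) and -2.31 (SE 0.20), also without overlap, so both probes of Sparc gave the same order of groups.

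Clca3a1 and Clca3a2 are neighboring paralogs of the CLCA family, whose products are secreted or surface metalloproteases that modulate calcium-activated chloride currents. Clca3a1 read -3.75, -3.30 and -3.59 in EV, -3.79, -4.43 and -4.04 in Gata2 KD, and 0.20, 0.49 and 0.35 in Pu.1 KD. In processed intensity this was 40.6 to 49.9 in EV against 533 to 699 in Pu.1 KD, a difference of 3.89 on the log2 scale (SE 0.20, 14.9-fold). The EV arrays were dim but well above background, and the Gata2 KD arrays were lower than EV by -0.54 (SE 0.20), with a gap of only 0.04 between the groups.

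Clca3a2 read -3.25, -3.47 and -2.97 in EV, -3.73, -3.59 and -3.57 in Gata2 KD, and 0.22, 0.26 and 0.48 in Pu.1 KD. The pattern was that of Clca3a1, with differences of 3.55 (SE 0.16, 11.7-fold) in Pu.1 KD and -0.40 (SE 0.16) in Gata2 KD, where the gap between groups was 0.10. Over the 9 arrays the 2 genes had a Pearson r of 0.989, the highest of the 28 pairs among the 8 genes. The sequences of the probes were not used here, so whether each probe reads 1 paralog alone was not tested and the 2 values may not be separate.

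Of the proteins at the plasma membrane, Marcks encodes the major myristoylated substrate of protein kinase C, which binds actin and calmodulin. It read -1.21, -0.81 and -1.14 in EV, -0.28, -0.81 and -0.97 in Gata2 KD, and 1.59, 2.04 and 1.72 in Pu.1 KD. The Pu.1 KD arrays were apart from all others, while EV and Gata2 KD overlapped. The difference was 2.83 (SE 0.22, 7.12-fold) in Pu.1 KD and 0.36 (SE 0.22) in Gata2 KD, and Marcks was the only one of the 8 whose Gata2 KD mean was above EV.

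Gem encodes a small GTPase of the RGK group, which inhibits voltage-gated calcium channels and was first known as a mitogen-induced gene. It read -3.99, -3.58 and -3.18 in EV, -4.68, -5.17 and -5.39 in Gata2 KD, and -1.50, -0.99 and -1.22 in Pu.1 KD. The groups did not overlap, with differences of 2.34 (SE 0.26, 5.08-fold) in Pu.1 KD and -1.50 (SE 0.26, 2.82-fold lower) in Gata2 KD. Gem was dim, at 12.9 to 17.1 in processed intensity in Gata2 KD and 37.0 to 53.8 in EV, and its EV arrays had the widest spread of the 8 genes (SD 0.40). With the normexp background correction its differences came to 1.46 and -0.39, so their size depends on how the background of dim spots is treated.

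Crip2 encodes a cysteine-rich protein with LIM domains, zinc-binding folds that mediate contacts between proteins. It read 0.37, 0.44 and 0.18 in EV, -1.65, -1.36 and -1.80 in Gata2 KD, and 2.06, 2.38 and 2.46 in Pu.1 KD. The 3 groups were well apart, and the differences of 1.97 (SE 0.17, 3.91-fold) in Pu.1 KD and -1.94 (SE 0.17, 3.83-fold lower) in Gata2 KD were of nearly equal size. Between Gata2 KD and Pu.1 KD the difference was -3.91.

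Vat1l encodes a protein of the quinone oxidoreductase family related to the synaptic vesicle membrane protein VAT1. Its probe of highest mean level read -0.18, -0.03 and 0.16 in EV, -1.95, -2.08 and -1.88 in Gata2 KD, and 3.70, 4.08 and 3.86 in Pu.1 KD. In processed intensity this was 481 to 545, 110 to 146 and 6051 to 8427. The differences were 3.90 (SE 0.16, 14.9-fold) in Pu.1 KD and -1.95 (SE 0.16, 3.87-fold lower) in Gata2 KD, and between Gata2 KD and Pu.1 KD it was -5.85 (57.8-fold), the largest such difference of the 15808 genes tested.

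The other 2 Vat1l probes were dimmer and gave smaller differences. One read -2.70, -2.97 and -3.25 in EV, -3.72, -4.03 and -3.16 in Gata2 KD, and 0.38, 0.52 and -0.13 in Pu.1 KD. Its Pu.1 KD arrays stood apart by 3.23 (SE 0.27) and its Gata2 KD arrays overlapped EV at -0.66 (SE 0.27). The remaining probe read -3.07, -3.21 and -3.22 in EV, -3.52, -2.83 and -3.35 in Gata2 KD, and -1.18, -1.08 and -1.67 in Pu.1 KD. It gave 1.86 (SE 0.22) in Pu.1 KD and -0.07 (SE 0.22) in Gata2 KD, again with overlap of Gata2 KD and EV. All 3 Vat1l probes were thus higher in Pu.1 KD, and the lower level in Gata2 KD was apart from EV in the brightest probe only.

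**Figure D2:**
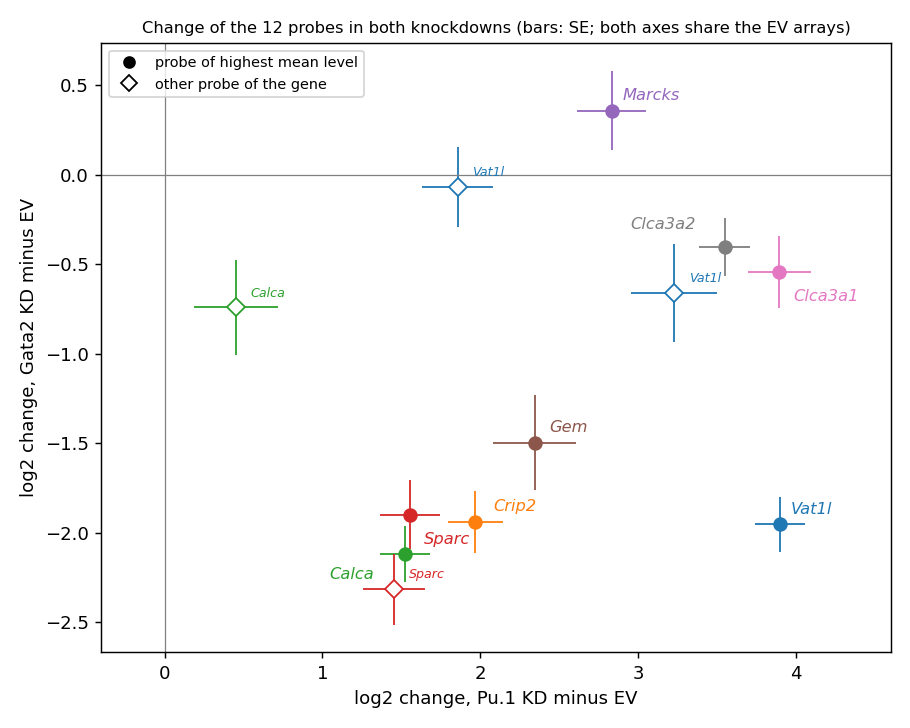
Log2 difference of Pu.1 KD from EV (x axis) and of Gata2 KD from EV (y axis) for the 12 probes, with SE; filled circles are the probe of highest mean level of each gene. All probes lie to the right of 0 on the x axis, the filled circles of Calca, Sparc, Crip2, Vat1l and Gem lie at -1.50 or below on the y axis, and those of the Clca pair and Marcks lie between -0.54 and 0.36.

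The 8 genes shared a level above EV in Pu.1 KD, for which they were chosen, and differed among themselves in Gata2 KD. On its brightest probe as processed here, each of Calca, Sparc, Crip2, Vat1l and Gem was lower in Gata2 KD by 2.82-fold or more. Clca3a1 and Clca3a2 lay at the edge of the EV range, and the arrays of Marcks overlapped it. The log2 change of Gem came to -0.39 with normexp and to -0.52 in the log2 values that the authors deposited. In the other probes of Calca and Vat1l, Gata2 KD overlapped EV. Set against Pu.1 KD, all 8 were over 4-fold lower in Gata2 KD (0.645% of all genes), from 5.55-fold in Marcks to 57.8-fold in Vat1l. The rise in Pu.1 KD for which the genes were chosen is part of this difference, so nothing is read from the count. Over the 9 arrays r between members ran from 0.741 (Calca and Marcks) to 0.989. The 9 arrays fall into 3 groups, which sets most of these r values, so they are a description.

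Differences within each slide were taken because the arrays of a slide were scanned together. Within the slides the Pu.1 KD array was above the EV array in all 24 of 24 differences, from 1.28 in Calca to 4.12 in Vat1l. Gem varied most, at 2.77, 1.68 and 2.59 on the 3 slides, and the lowest of these came from the slide of EV replicate 3. Sparc varied least, at 1.52, 1.56 and 1.59. In Gata2 KD the within-slide differences ran from -2.27 in Calca to 0.52 in Marcks, and those of Marcks were 0.24, 0.32 and 0.52. Clca3a1 gave -0.29, -0.84 and -0.49, and Clca3a2 gave -0.32, -0.62 and -0.26.

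**Figure D3:**
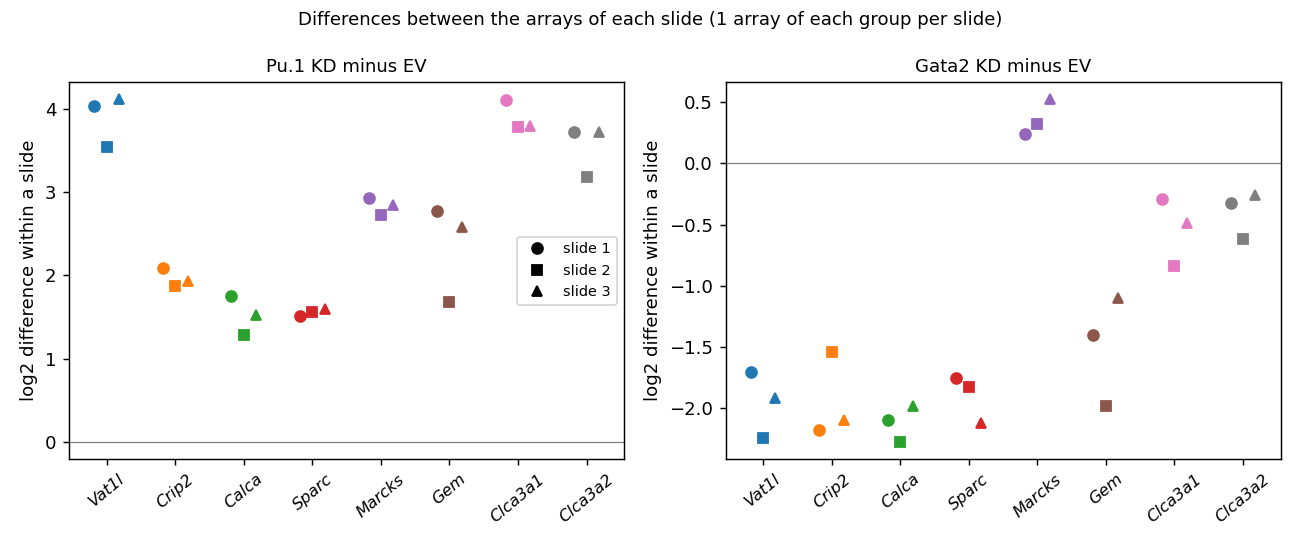
Log2 difference between the knockdown array and the EV array of the same slide for each gene, in Pu.1 KD (left) and Gata2 KD (right), with 1 point per slide. Pu.1 KD differences lie between 1.28 and 4.12 on all slides, and in Gata2 KD the points of Marcks alone lie above 0.

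The genes whose pattern was most like that of each member were sought among 1231 genes with signal well above background on each of the 9 arrays and group means at least 1 apart on the log2 scale. RIKEN clone names were passed over. Over the 9 arrays Vat1l was followed by Kel (r 0.993), Mfsd4a (0.993) and Tph1 (0.992), where Kel encodes the Kell blood group endopeptidase and Tph1 the enzyme of serotonin synthesis. Crip2 was followed by Ccdc92 (0.996), Phlda3 (0.995) and Col18a1 (0.992), Calca by Hscb (0.995), Nhsl1 (0.995) and Aldh1a1 (0.994), and Sparc by Pbx4 (0.995), Kifc3 (0.993) and Klc3 (0.993). For Gem they were Pfn2 (0.996), Abcg2 (0.993) and Ces2g (0.992). Marcks, which did not share the low Gata2 KD level, had Phlda1 (0.988), Bcl2l11 (0.987) and Casp4 (0.987), and these 3 differed from EV by 0.02, 0.28 and 0.36 in Gata2 KD. Clca3a1 and Clca3a2 were each in the other's first 3, beside Bbc3 (0.989) and Rexo5 (0.988) for Clca3a1 and Ephx2 (0.988) for Clca3a2. The arrays share 3 groups, so these r values carry no test.

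Markers of blood lineages moved with the same groups. Their lists were chosen with earlier results of these data known, so the shares called, beside those of all genes, are a description. Of 10 megakaryocyte markers tested, 4 were called higher in Pu.1 KD at a limma adjusted p under 0.05 and 1 lower, where 1.45% of all genes were called higher and 2.16% lower. The summed level of the list, in multiples of the 75th percentile, was 66.9 to 85.9 in EV, 157 to 184 in Pu.1 KD and 67.8 to 99.3 in Gata2 KD, and all 10 were well above background on every array. Pf4 was its largest term, and without Pf4 the sum was 34.6 to 48.1 in EV, 60.0 to 67.5 in Pu.1 KD and 30.9 to 39.0 in Gata2 KD. Among the markers called in Pu.1 KD, Pf4 rose by 1.62, Treml1 by 0.86 and Vwf by 0.71, and Gp1ba fell by 1.34. In Gata2 KD 2 of the 10 were called higher and 2 lower, where 4.21% and 2.95% of all genes were. Vwf (0.84) and Gp1ba (-0.83) were among them, so these 2 moved the same way in both knockdowns. Ppbp (1.65) and Gp5 (-1.15) were the others, and in Pu.1 KD they changed by 0.05 and 0.73 and were not called. Of 8 erythroid markers 2, Epor (0.87) and Klf1 (0.84), were called higher in Pu.1 KD, and the same 2 were called lower in Gata2 KD (-0.65 and -1.76). The list summed to 16.8 to 20.9 in EV, 23.6 to 27.2 in Pu.1 KD and 12.9 to 18.2 in Gata2 KD. Without Hba-a1, its largest term, the sum was 9.28 to 12.6 in EV and 11.8 to 14.1 in Pu.1 KD, ranges that overlap. In Gata2 KD it was then 6.89 to 8.19. Of 9 neutrophil markers, 7 were lower in Pu.1 KD (sum 185 to 210 in EV, 95.3 to 110 in Pu.1 KD) and all 9 higher in Gata2 KD (789 to 870). Of 7 monocyte and macrophage markers, Adgre1 and Fcgr1 were lower in Pu.1 KD (sum 3.03 to 3.85, against 5.22 to 6.20 in EV) and 6 were higher in Gata2 KD (30.3 to 33.8). Of 9 mast cell and basophil markers, Cma1 was higher (1.49) and Fcer1a and Hdc lower in Pu.1 KD (sum 71.9 to 79.9, against 111 to 129 in EV), and 5 were lower in Gata2 KD (23.0 to 24.7). The part of these shifts in the values of the 8 genes was not tested.

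Calca, Sparc and the CLCA genes are also known from neuroendocrine cells, stroma and epithelia. Of 45 tested markers of fibroblasts and stroma, endothelium, epithelium, neuronal and neuroendocrine cells, and T and B cells, limma called 0 in Pu.1 KD and 0 in Gata2 KD. Of all genes 3.61% and 7.15% were called. At an unadjusted p under 0.05 there were 3 and 5, where 2277 and 2827 of all 15808 genes were. With 45 genes few calls are due at these shares, so the 0 does not show that such cells or their genes are absent. The summed level of the neuronal and neuroendocrine list was 2.22 to 2.88 in EV, 2.39 to 2.73 in Pu.1 KD and 2.43 to 2.99 in Gata2 KD, ranges that overlap. The fibroblast and stroma list summed to 28.6 to 49.4 in EV and 22.7 to 30.8 in Pu.1 KD. Acta2, smooth muscle actin, made up most of that sum, and without it the list summed to 1.77 to 4.22 in EV and 1.99 to 3.52 in Pu.1 KD, ranges that overlap.

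Genes related to the 8 by family or function were taken from 10 lists, which held 134 genes, of which 123 were on the arrays and 116 were tested. They were fitted on the whole table with limma and called at an adjusted p under 0.05 over all probes. In Pu.1 KD 3 were higher and 5 lower, 6.9% of those tested, where 3.61% of all genes were called. In Gata2 KD 10 were higher and 9 lower, 16.4% of those tested, where 7.15% of all genes were called, 4.21% higher and 2.95% lower. The lists were chosen with earlier results of these data known, so these shares beside those of all genes are a description. The medians over the 116 genes were -0.06 in Pu.1 KD and -0.09 in Gata2 KD, against -0.04 and -0.09 over all genes. Over the 20 alternatives the higher calls in Pu.1 KD ranged from 0, with the replicate block among others, to 9 with the slide as a block, and the lower calls from 1, also with the replicate block, to 7 with the deposited values.

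In the families of the Clca pair, Vat1l and Sparc no relative was called. None of 3 tested CLCA relatives (Clca1, Clca3b and Clca4a) was called in either knockdown, nor at an unadjusted p under 0.05. Their changes lay between -0.37 and -0.08 in Pu.1 KD. All 3 were dim, at -4.01, -4.11 and -3.28 in EV, and little can be read from 0 calls among 3 genes. None of 8 relatives of Vat1l in the VAT1 and quinone oxidoreductase family was called either (2 at an unadjusted p under 0.05 in Pu.1 KD and 3 in Gata2 KD), and Vat1 itself changed by -0.32 and 0.17. The same held for 6 relatives of Sparc (0 at an unadjusted p under 0.05 in both). In the wider list of 16 matrix genes 0 were called in Pu.1 KD (1 at an unadjusted p under 0.05), while in Gata2 KD Thbs1, which encodes thrombospondin 1, rose by 3.08 (SE 0.16, limma adjusted p 2.76e-05), Col4a2 rose by 1.17 and Lamc1 fell by 0.66. The calls of Col4a2 and Lamc1 were lost under 5 and 14 of 20 alternatives.

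Among 9 calcium-activated chloride channels 0 were called in Pu.1 KD (1 at an unadjusted p under 0.05). In Gata2 KD Ano10 rose by 1.54 and Ano1, which encodes the channel TMEM16A, was called lower. Ano1 was not well above background on any Gata2 KD array, so the size of its fall is uncertain. Set against the lowest signal well above background of any probe on those arrays it was 2.78-fold lower, which is no lower limit. Its change came to -0.24 with normexp, and its call was lost under 2 of 19 alternatives. Of 14 genes of the calcitonin and CGRP system, 0 were called in Pu.1 KD (3 at an unadjusted p under 0.05). In Gata2 KD the genes of the CGRP receptor, Calcrl and its partner Ramp1, rose by 0.84 (SE 0.14, limma adjusted p 0.00888) and 0.99 (SE 0.12, limma adjusted p 0.00181), where Calca itself was lower. Calcb, the gene of the second CGRP, changed by 1.22 in Pu.1 KD (SE 0.54, limma adjusted p 0.416) and -2.21 in Gata2 KD (SE 0.54, limma adjusted p 0.0586), and was well above background on 6 of 9 arrays.

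In the list of MARCKS relatives and membrane-bound partners (17 tested), Add2, which encodes the cytoskeletal protein beta-adducin, rose by 1.53 in Pu.1 KD (SE 0.31, limma adjusted p 0.0442), a call lost under 11 of 20 alternatives. Basp1, a MARCKS-like substrate of protein kinase C, fell in both knockdowns, by 0.95 in Pu.1 KD (lost under 10 of 20 alternatives) and 1.21 in Gata2 KD. Prkcb and Prkcd, which encode protein kinases C beta and delta, rose in Gata2 KD by 2.62 and 0.93 and changed by -0.04 and 0.00 in Pu.1 KD. Marcksl1, the closest relative of Marcks, changed by -0.45 in Pu.1 KD (limma adjusted p 0.379) and -0.03 in Gata2 KD.

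Of 12 RGK GTPases and partners, Gmip, named for its binding to Gem, fell by 0.73 in Pu.1 KD and rose by 0.66 in Gata2 KD. These calls were lost under 10 and 11 of 20 alternatives. Cacnb4, a calcium channel beta subunit of the kind RGK proteins bind, fell by 1.16 in Gata2 KD (SE 0.14, limma adjusted p 0.00175) and changed by 0.60 in Pu.1 KD (limma adjusted p 0.0684). Of 11 CREB target and immediate early genes, Dusp1 fell by 1.15 in Pu.1 KD (lost under 12 of 20 alternatives) and Nr4a2 fell by 1.22 in Gata2 KD. Among 20 CRIP and LIM-domain genes, Lmo4 and Crip1 fell by 1.48 (SE 0.19, limma adjusted p 0.00699) and 1.25 (SE 0.20, limma adjusted p 0.0172) in Pu.1 KD, where Crip2 was higher, and the call of Crip1 was lost under 6 of 20 alternatives. The 2 higher calls of this list in Pu.1 KD, Fhl2 (0.66) and Ablim1 (0.73), were lost under 14 and 16. In Gata2 KD Csrp3 fell by 1.67 and Lmo1 rose by 2.95. Lmo1 was well above background on 1 of 3 EV arrays and on all 3 of Gata2 KD, and its change came to 0.88 with normexp. The other calls of the list in Gata2 KD were Lmo2 (0.93), Pdlim5 (-1.21), Fhl2 (-0.67) and Csrp2 (-0.59), which makes 2 higher and 4 lower. The calls of Lmo2, Fhl2 and Csrp2 were lost under 9, 11 and 10 of 20 alternatives. Of the calls of related genes in Pu.1 KD, that of Lmo4 alone held under all 20 alternatives.

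**Figure D4:**
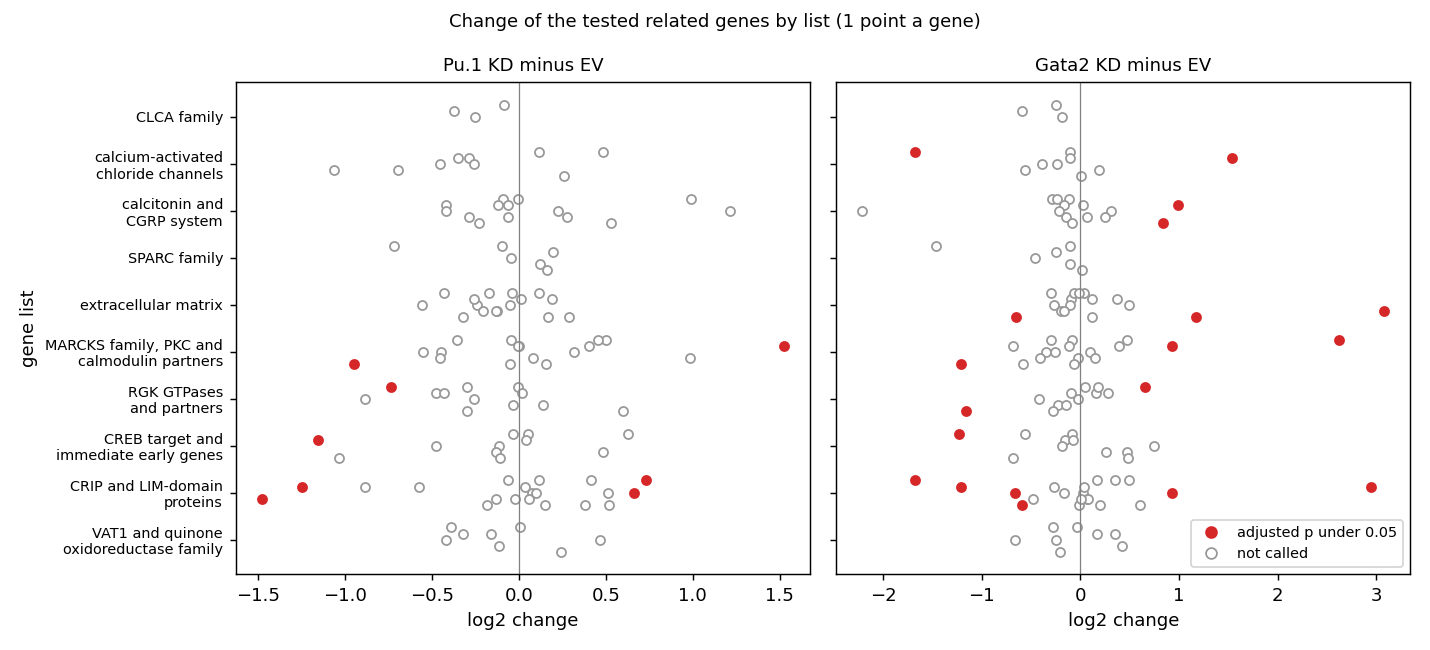
Log2 change of the 116 tested related genes by list in Pu.1 KD (left) and Gata2 KD (right), 1 point per gene, filled where the limma adjusted p was under 0.05. In Pu.1 KD 8 points are filled, 3 to the right of 0 and 5 to the left, and in Gata2 KD 19 are filled, 10 to the right and 9 to the left.

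The tested genes nearest to each member on its chromosome, 2 on each side, gave 28 genes. In Pu.1 KD limma called 0 of them higher (0 at an unadjusted p under 0.05) and 1 lower, which was Crip1, the gene next to Crip2. The adjacent pair Crip1 and Crip2 thus lay on opposite sides of EV in Pu.1 KD. Clca3b and Clca4a, beside the Clca3a1 and Clca3a2 pair, changed by -0.37 (SE 0.40) and -0.25 (SE 0.29), and neither was called. In Gata2 KD 0 were called higher (1 at an unadjusted p under 0.05) and 2 lower (8 at an unadjusted p under 0.05), Nudt7 beside Vat1l (-0.85, SE 0.13, limma adjusted p 0.00726) and Ints8 beside Gem (-0.66, SE 0.12, limma adjusted p 0.0184). The call of Ints8 was lost under 7 of 20 alternatives and that of Nudt7 under none. The share called was 3.57% in Pu.1 KD and 7.14% in Gata2 KD, beside 3.61% and 7.15% of all genes. The medians over the 28 genes were -0.18 in Pu.1 KD and -0.25 in Gata2 KD, against -0.04 and -0.09 over all genes.

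The changes of the 8 genes were recomputed under 20 other ways of processing, and all kept their sign in both comparisons. In Pu.1 KD the differences of Sparc and Crip2, which are brighter, came to 1.46 and 1.90 with normexp, and that of Calca, also brighter, lay between these values. Clca3a1, Clca3a2 and Gem, which were dim in EV, moved most in that setting, from 3.89 to 2.83, from 3.55 to 2.55 and from 2.34 to 1.46. In Gata2 KD normexp brought Clca3a1, Clca3a2 and Gem to -0.14, -0.11 and -0.39. Each was within the SD of the gene's EV arrays, taken from the main processing. The deposited log2 values gave 3.24 for Clca3a1, 2.89 for Clca3a2 and 1.85 for Gem in Pu.1 KD. In Gata2 KD they moved Gem from -1.50 to -0.52 and Vat1l from -1.95 to -1.68.

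**Figure D5:**
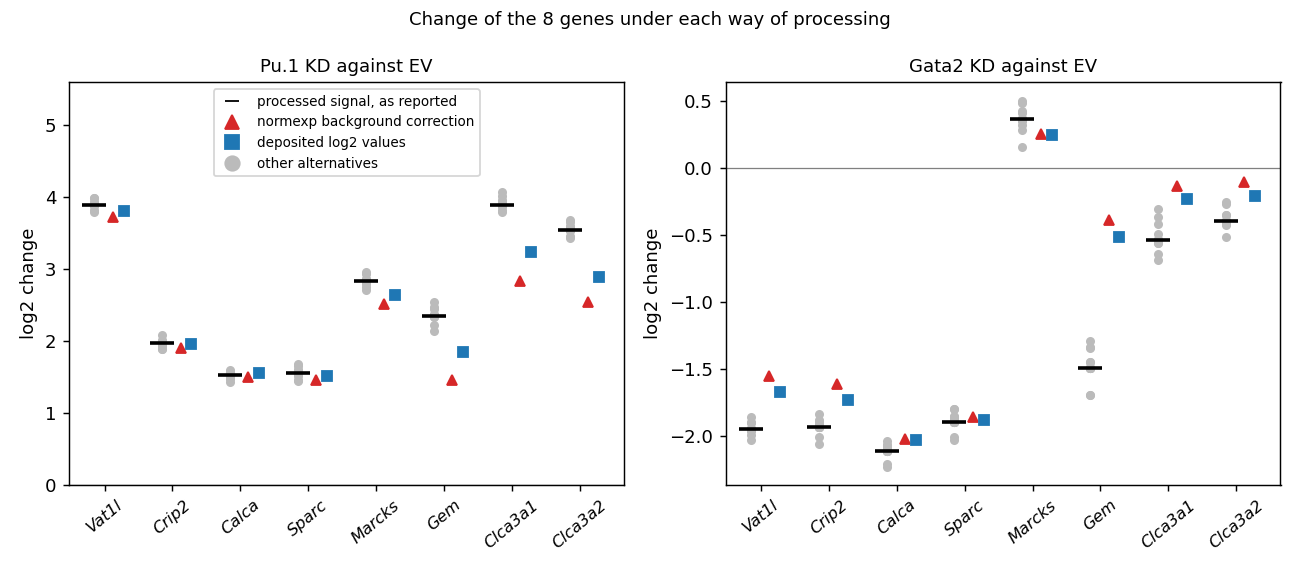
Log2 change of the 8 genes in Pu.1 KD (left) and Gata2 KD (right) under the processing used here (black bars), normexp (triangles), the deposited log2 values (squares) and the other alternatives (gray points). Triangles and squares of Gem, Clca3a1 and Clca3a2 lie nearer to 0 than the black bars, and no point crosses 0.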

How the data were processed

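Sample titles gave each array's group and replicate number. The authors deposited for each array the intensity values of Agilent Feature Extraction 10.1.1.1 (design annotated to mm8), not normalized between arrays, of which the processed signal is background-subtracted and detrended. The authors also deposited log2 values, used as an alternative only. Here control spots were dropped, outlier spots (47 to 96 per array) set to missing, spots averaged per probe, and the array's 75th percentile subtracted from log2 processed signal. A probe was tested when well above background (at least 50% of its spots) on 3 or more of 9 arrays with 2 or more values per group, which left 36585 probes. Accessions were matched without version to RefSeq names (GRCm38.p6), naming 23374 probes, and neighboring genes and promoters come from the same build. The probe of highest mean level stood for a gene.

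limma 3.58.1 in R 4.3.3 was fitted on group means over the 9 arrays, with p-values adjusted by Benjamini-Hochberg over the probes tested, a threshold of 0.05 and two-sided tests, and was tested on simulated data. The 8 genes and the related-gene, neighbor and marker lists were chosen with earlier results of these data known. From each list up to 4 called genes of largest change were named, and Marcksl1, Vat1, Calcb, the CLCA relatives, the remaining called LIM genes and the called markers were named after their values were seen. The alternatives were normexp (offset 50), quantile and median scaling, no or a 9-array filter, outlier spots kept, deposited values, replicate or slide block, only the groups compared, trend and robust eBayes, and each array left out. Normexp used the median signal, since the intensity columns used held no mean signal. The number of arrays limits precision. The promoter of 1 member and some single genes are not reported here.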

Additional observations from a re-analysis of the deposited data

How the results depend on the processing

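All 16 changes of the 8 genes kept their sign in the 320 values under alternatives. Of these values 14 moved by over 1 SD, 9 with normexp and the others with the deposited log2 values. Deviations of same-numbered replicates had r from -0.55 to 0.65, and 9 such values cannot settle whether the numbers pair the samples. Arrays of the same slide had r from -0.04 to 0.72, and the slide was not part of the main fit. With the replicate block, related genes in Pu.1 KD had 0 higher and 1 lower calls (3 and 5 as reported) and neighbors 0 lower (1), and in Gata2 KD related genes had 6 higher (10) and neighbors 1 lower (2). The slide block gave 9 higher related genes in Pu.1 KD, and 1 higher and 5 lower neighbors in Gata2 KD. With only the groups compared in the fit, Pu.1 KD had 0 higher and 1 lower related genes and 0 lower neighbors, and Gata2 KD 1 lower neighbor. Median scaling gave 2 lower related genes in Pu.1 KD, 6 higher in Gata2 KD and 1 lower neighbor there. Higher related genes in Pu.1 KD were 1 without the filter on dim probes, 5 with the 9-array filter and 7 in the deposited values, which also called 1 higher neighbor. Trend and robust settings gave 4 lower neighbors in Gata2 KD. Leaving out 1 array gave 0 to 2 higher and 1 to 4 lower related genes and 0 to 1 lower neighbors in Pu.1 KD, and 6 to 10 higher related genes and 1 to 3 lower neighbors in Gata2 KD. Higher related genes in Pu.1 KD came to 0 without any one of EV replicates 1 and 2, Gata2 KD replicates 2 and 3 or Pu.1 KD replicates 1, 2 and 3. Of 29 calls of single related or neighboring genes, 12 were kept under every alternative run. The cause of these shifts was not tested. Leaving out EV replicate 2 moved the median of all probes to -0.14 in Pu.1 KD and -0.19 in Gata2 KD.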
